A study of Mus musculus with 11 samples.

Results

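The endocrine genes of the gastric corpus form a set of 10 genes, chosen by name from the 34866 genes of the table: ghrelin (Ghrl), somatostatin (Sst), histidine decarboxylase (Hdc), the vesicular monoamine transporter 2 gene Slc18a2, chromogranins A and B (Chga, Chgb), tryptophan hydroxylase 1 (Tph1), aromatic L-amino acid decarboxylase (Ddc), the transcription factor gene Neurod1, and gastrin (Gast), a hormone of the antrum kept as a check on where the tissue was taken. All 10 were matched by symbol and entered the test. The samples were mucosa of the mouse gastric corpus, sequenced as whole-tissue RNA: 2 wild-type controls and 3 samples from each of ATP4B-DTR, GIF-DTR and a line named for both, GIF/ATP4B-DTR, called the combined line where the 3 lines are listed. The lines were made to remove parietal cells, which carry the proton pump subunit Atp4b, chief cells, which in the mouse make intrinsic factor (Gif), or both cell types, and DTR stands for the diphtheria toxin receptor. The construct and promoter of each transgene, the toxin dose, the time of collection, age, sex and background strain are not stated in the labels, nor is it stated whether the controls received toxin. The labels also do not say that samples of a group came from separate animals, so the p-values measure the spread between these samples, which may in part be technical.

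Endocrine cells lie singly among the gland epithelium of the corpus. Ghrelin cells make a hormone that raises food intake, D cells make somatostatin, which restrains acid secretion, and enterochromaffin-like (ECL) cells make histamine, which stimulates parietal cells. Hormones and amines are stored in dense-core granules that hold chromogranins. Histamine is made by Hdc and serotonin by Tph1 followed by Ddc, and the transporter encoded by Slc18a2 loads both amines into vesicles. Mast cells also express Hdc, and those of the mouse also express Tph1.

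The deposited values were estimated counts, with totals of 20.7 to 27.9 M per sample. Levels below are counts per M (CPM), scaled by edgeR's TMM factors (trimmed mean of M-values), and 3 counts, taken as the floor, correspond to 0.107 to 0.166 CPM. The targeted genes followed the labels: Atp4b was at 4786 and 4365 CPM in the controls, 475 to 683 in ATP4B-DTR and 158 to 468 in GIF/ATP4B-DTR, and Gif was at 702 and 2303 CPM in the controls, 65.5 to 196 in GIF-DTR and 72.3 to 218 in GIF/ATP4B-DTR. Each of these falls passed the test, while Gif in ATP4B-DTR (332 to 824 CPM) and Atp4b in GIF-DTR (2136 to 3470 CPM) did not. Of 10 listed parietal genes 6, 5 and 9 were called lower in ATP4B-DTR, GIF-DTR and the combined line, and of 7 tested chief cell genes 0, 3 and 3, where 9.39%, 6.82% and 15.4% of all tested genes were called lower. The chief gene Cym was called higher in GIF-DTR and GIF/ATP4B-DTR, and the chief median log2 change was negative in each line (-1.24 in ATP4B-DTR and -2.54 in GIF-DTR). The summed level of 4 Y-linked genes was 129 and 151 CPM in the controls and 174 to 195 in GIF/ATP4B-DTR. It was 2.50 to 4.07 CPM in the GIF-DTR samples and 182.5, 4.92 and 2.73 in ATP4B-DTR 1 to 3. The GIF-DTR genotype and absence of Y-linked expression thus cannot be told apart against control or against GIF/ATP4B-DTR. For ATP4B-DTR the same comparisons are partly confounded, as only ATP4B-DTR 1 had Y-linked expression at the level of the controls or above. All 3 lines were compared with the same 2 controls. Ghrl, Slc18a2, Ddc and Neurod1 have annotated genes on the opposite strand that are not analysed here, and as the strand setting of the counting is not given, reads from these genes cannot be told apart from the members' own.

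Transcripts of the granule protein Chgb and of the decarboxylase Ddc rose in ATP4B-DTR and GIF/ATP4B-DTR, and those of Tph1 fell in GIF-DTR and GIF/ATP4B-DTR. The hormone genes Ghrl and Sst passed the test in none of the lines. In ATP4B-DTR against control, 2 of the 10 genes were called at a Benjamini-Hochberg adjusted p under 0.05 in edgeR's quasi-likelihood test, Chgb and Ddc, both higher, where 21.6% of all 14889 tested genes were called, 12.2% higher and 9.39% lower. In GIF-DTR 1 of the 10 was called, Tph1, lower, where 16.8% of tested genes were called, 9.97% higher and 6.82% lower. In GIF/ATP4B-DTR 3 of the 10 were called, Chgb and Ddc higher and Tph1 lower, where 33.6% of tested genes were called, 18.2% higher and 15.4% lower. These shares lie near those among all genes, as far as 10 genes can show. Leaving out Gast, whose controls are at or under the floor, the samples of line and control did not overlap for 4 of 9 genes in ATP4B-DTR, for 2 in GIF-DTR and for 5 in the combined line, where 48.5%, 48% and 56.3% of all tested genes did not. At an unadjusted p under 0.05 were 5, 2 and 3 of the 9, where 34.8%, 31.4% and 44.5% of all tested genes were. The median log2 fold change of these 9 genes was 0.46, 0.14 and 0.60 in the 3 lines in this order, beside -0.01, -0.01 and -0.04 over all tested genes. These shares of all genes depend on single samples: without control 2, edgeR called 1315 genes in place of 3211 in ATP4B-DTR, 871 in place of 2500 in GIF-DTR and 2874 in place of 5005 in GIF/ATP4B-DTR, and the count in GIF-DTR was 1136 without control 1, 1613 without GIF-DTR 2 and 1091 without GIF-DTR 3. In bulk tissue a change in the number of endocrine cells and a change in RNA per cell, in either direction, cannot be told apart, for these and all results below.

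**Figure D1:**
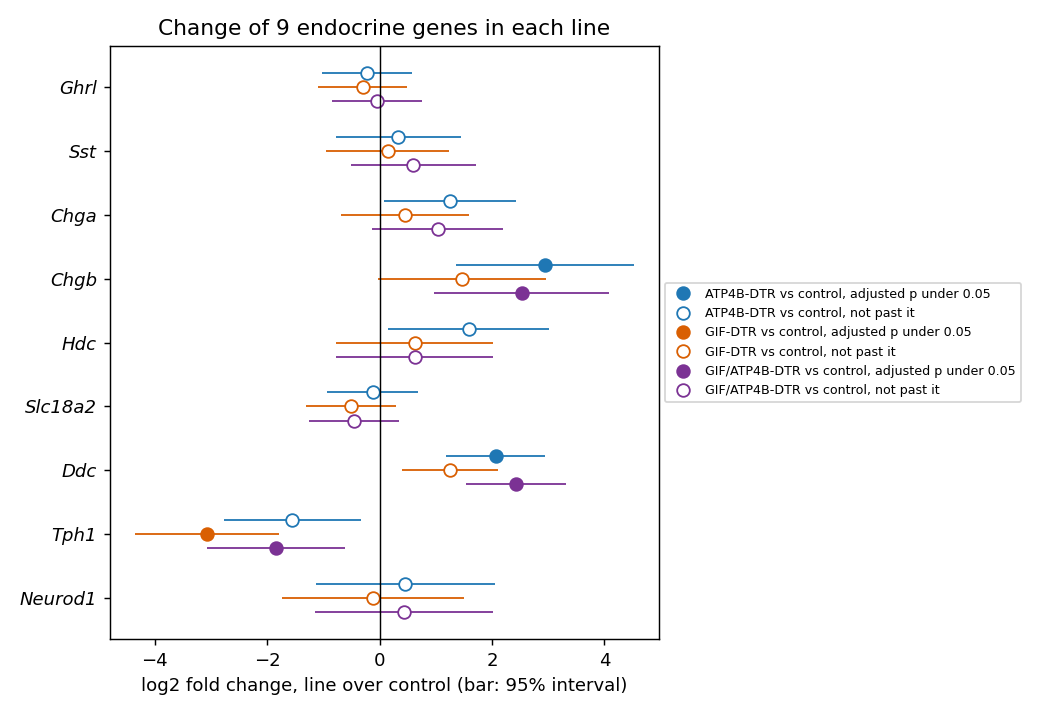
Log2 fold change of 9 endocrine genes in each line against the 2 controls (x axis) by gene (y axis), with 95% intervals from the edgeR fit. Filled circles passed an adjusted p of 0.05: Chgb and Ddc in ATP4B-DTR and GIF/ATP4B-DTR, and Tph1 in GIF-DTR and GIF/ATP4B-DTR.

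Between genes, levels were compared only per length, as CPM per kb of merged exons. On that scale the hormone genes stood highest in the controls, Ghrl at 311 and 573 and Sst at 137 and 320, followed by Chga at 48.4 and 113. The order of the control means went on with Chgb at 5.45, Slc18a2 at 4.33, Hdc at 2.38, Ddc at 1.16, Tph1 at 0.874, Neurod1 at 0.11 and Gast at 0.0488. The ranges of the controls overlapped between the neighbours Chgb and Slc18a2 (3.47 and 7.43 against 3.30 and 5.37) and between Ghrl and Sst. The other neighbours in this order, such as Slc18a2 and Hdc (1.65 and 3.11), did not overlap. The controls differed from each other in most of these genes: control 2 was above control 1 by 2.34 times in Sst, 2.33 in Chga, 2.14 in Chgb, 1.89 in Hdc, 1.84 in Ghrl, 1.63 in Slc18a2, 1.35 in Ddc and 1.23 in Neurod1, and by 0.878 times, thus lower, in Tph1. Differences of that size between a line and control are within the spread of the controls.

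**Figure D2:**
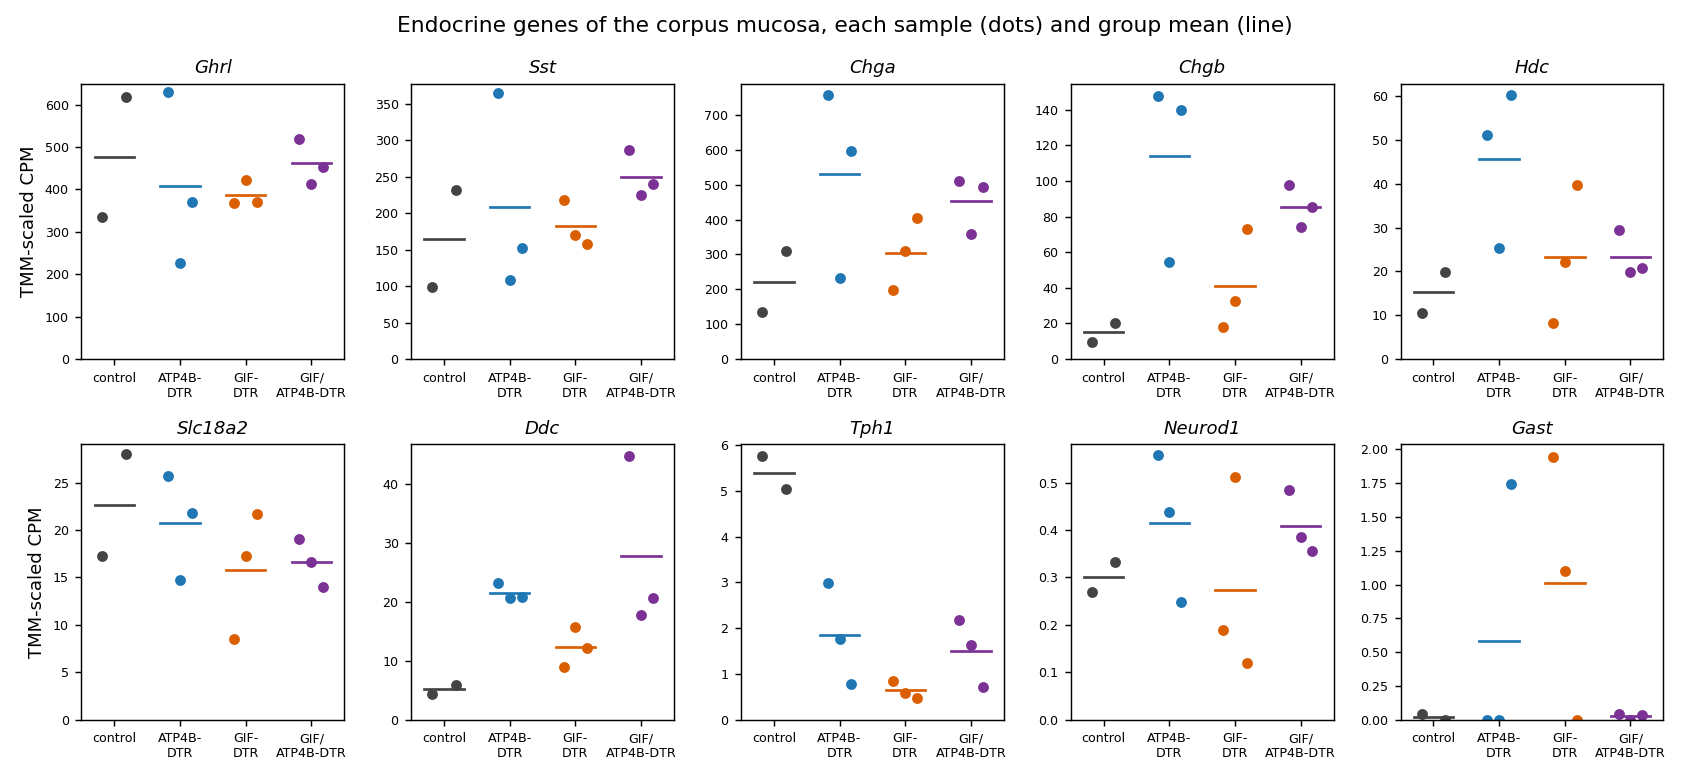
TMM-scaled CPM (y axis, linear from 0, a scale of its own in each panel) of the 10 endocrine genes in each sample, by group, with dots for samples and lines for group means. Chgb and Ddc lie above both controls in all ATP4B-DTR and GIF/ATP4B-DTR samples, and Tph1 lies below both controls in all 9 samples of the lines.

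The gene of ghrelin, the hormone that raises appetite, lies on chromosome 6 (113716119 to 113719880, minus strand; this and the coordinates below are GENCODE M21 on GRCm38, the build mm10). Ghrl was at 336 and 619 CPM in the controls, 629.5, 228 and 370.0 in ATP4B-DTR 1 to 3, 368, 423 and 370.1 in GIF-DTR 1 to 3, and 518, 412 and 454 in GIF/ATP4B-DTR 1 to 3. All 3 lines overlapped the controls, and ATP4B-DTR held both the highest and the lowest of the 11 samples. The log2 fold change was -0.22 ± 0.36 (SE; 95% interval -1.02 to 0.57) in ATP4B-DTR, -0.30 ± 0.36 (-1.10 to 0.49) in GIF-DTR and -0.05 ± 0.36 (-0.85 to 0.75) in the combined line (edgeR adjusted p = 0.694, 0.62 and 0.926). The lower ends of these intervals correspond to 0.494, 0.468 and 0.556 of the control level, and smaller changes in either direction lie within them. Scaling by library totals alone moved the median of all genes by 0.31, 0.36 and 0.32 in the 3 lines, more than these values, so their sign depends on the scaling.

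Of the 12 listed genes of the ghrelin axis 7 were tested, with 0, 1 and 1 called higher and 2, 3 and 3 called lower in ATP4B-DTR, GIF-DTR and the combined line. Beside these and the list counts below, the shares over all tested genes are those given above: 12.2%, 9.97% and 18.2% higher and 9.39%, 6.82% and 15.4% lower. Lpl, a lipoprotein lipase, and Acsl1, an acyl-CoA synthetase, fell in all 3 lines. Lpl was at 576 and 509.9 CPM in the controls, 21.6 to 22.6 in ATP4B-DTR, 144 to 238 in GIF-DTR and 16.6 to 19.6 in GIF/ATP4B-DTR, a log2 change of -4.63 ± 0.21, -1.60 ± 0.19 and -4.91 ± 0.21 (edgeR adjusted p = 1.24e-06, 0.0011 and 4.13e-07). The parietal cell gene Slc26a7 also fell in all 3 lines, at 78.3 and 71.3 CPM in the controls, 0.233 to 0.911 in ATP4B-DTR, 17.9 to 31.4 in GIF-DTR and 0 to 0.463 in GIF/ATP4B-DTR, and the part of parietal cells in these axis genes was not tested. Nucb2, the gene of the nesfatin precursor, fell in GIF-DTR (-1.18 ± 0.29, adjusted p = 0.0196) and GIF/ATP4B-DTR (-0.87 ± 0.29, adjusted p = 0.037). Ffar4, a receptor for long-chain fatty acids found on ghrelin and D cells among others, rose in GIF-DTR (3.69 ± 0.47, adjusted p = 0.00142) and GIF/ATP4B-DTR (3.09 ± 0.46, adjusted p = 0.000556). Mboat4, which encodes the enzyme that acylates ghrelin, was at 0.988 and 1.77 CPM in the controls and 1.32 to 3.15 in the lines, and was not called in any line. The ghrelin receptor gene Ghsr was listed at 0 in all 11 samples.

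Somatostatin from D cells acts on neighbouring cells of the gland. Sst (chromosome 16, 23889573 to 23890958, minus strand) was at 98.5 and 231 CPM in the controls, 364, 108 and 152 in ATP4B-DTR 1 to 3, 218, 170.2 and 157 in GIF-DTR 1 to 3, and 286, 225 and 239 in GIF/ATP4B-DTR 1 to 3. Every line overlapped the controls, and control 1 was the lowest sample. The log2 fold change was 0.34 (95% interval -0.77 to 1.44), 0.14 (-0.96 to 1.24) and 0.60 (-0.51 to 1.72) in the same order of lines (edgeR adjusted p = 0.662, 0.885 and 0.375). Without control 1 or without ATP4B-DTR 1 the value in ATP4B-DTR turned negative (-0.15 and -0.36). Of 10 listed genes of the somatostatin axis, which also holds Ffar4, 6 were tested, with 2 called lower in each line and Ffar4 called higher in GIF-DTR and the combined line. The receptor gene Sstr2 fell in all 3 lines, from 26.7 and 21.5 CPM in the controls to 4.70 to 6.30, 9.05 to 10.6 and 3.53 to 4.56 (log2 change -2.09 ± 0.20, -1.33 ± 0.19 and -2.53 ± 0.20; edgeR adjusted p = 0.000126, 0.00225 and 1.83e-05). The adenosine receptor gene Adora1 also fell in all 3 (-1.25 ± 0.21, -0.88 ± 0.21 and -0.82 ± 0.21; adjusted p = 0.00259, 0.0183 and 0.0117).

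Chromogranins A and B are acidic proteins that condense with hormones in dense-core granules, and Chga is the usual marker of endocrine cells. Their genes and Sst share a feature the choice of genes did not use: the 8-letter motif of the cAMP response element, or a form of it with 1 base changed, close upstream of a RefSeq start site. The 30 bases around it are shown because the genes with it include Chgb, which rose, and Sst, which was not called. Each is given 5′ to 3′ on the strand of the gene, from RefSeq promoters of GRCm38.p6, with the motif in capitals.
Chgb, chr2:132781559-132781588, plus strand: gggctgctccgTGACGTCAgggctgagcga
Chga, chr12:102554886-102554915, plus strand: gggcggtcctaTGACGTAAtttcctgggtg
Sst, chr16:23890874-23890903, minus strand: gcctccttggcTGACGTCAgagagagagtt
The motif began 72 bases upstream of the RefSeq start site in Chgb, 44 in Chga and 48 in Sst. By the GENCODE coordinates given for these genes the Chgb and Sst windows lie inside the gene, so the annotations differ on whether they are upstream. All 10 genes matched the promoter table, with 15 promoters. TGACGTCA, which reads the same on both strands, was found in the 250 upstream bases of 1.55% of 32851 promoters, and TGACGTAA, searched on both strands and added after the Chga sequence was seen, in 0.447%. The matches overlapped no other motif that was searched. A match is a description of letters, and binding there was not measured.

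Chgb (chromosome 2, 132781278 to 132795079, plus strand) was at 9.52 and 20.4 CPM in the controls, 148, 54.2 and 139.9 in ATP4B-DTR 1 to 3, 17.8, 32.5 and 73.0 in GIF-DTR 1 to 3, and 97.8, 73.9 and 85.2 in GIF/ATP4B-DTR 1 to 3. All samples of ATP4B-DTR and GIF/ATP4B-DTR lay above both controls, while GIF-DTR 1 lay between the controls. Chgb rose 7.66-fold in ATP4B-DTR (95% interval 2.56 to 22.9; log2 change 2.94 ± 0.70, edgeR adjusted p = 0.0186) and 5.75-fold in GIF/ATP4B-DTR (1.96 to 16.9; 2.52 ± 0.68, adjusted p = 0.0208). In GIF-DTR the log2 change was 1.47 ± 0.65 (95% interval -0.02 to 2.95, adjusted p = 0.165). The call in ATP4B-DTR was lost without either control and that in the combined line without control 1: without control 1 the edgeR adjusted p was 0.0956 in ATP4B-DTR (2.49) and 0.104 in the combined line (2.08), and without control 2 it was 0.0562 in ATP4B-DTR (3.58). With no filter on low counts it was 0.0557 in the combined line (2.50). Over 21 alternatives the adjusted p ranged from 9.87e-05 to 0.0956 in ATP4B-DTR and from 0.000648 to 0.104 in the combined line.

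Chga (chromosome 12, 102554969 to 102565028, plus strand) was at 133.5 and 311 CPM in the controls, 759, 233 and 596.5 in ATP4B-DTR 1 to 3, 197, 311 and 404 in GIF-DTR 1 to 3, and 509, 359.5 and 494 in GIF/ATP4B-DTR 1 to 3. The GIF/ATP4B-DTR samples lay above both controls, ATP4B-DTR 2 lay between the controls, and GIF-DTR 1 and 2 lay within their range. No line passed the test: the log2 change was 1.25 ± 0.53 in ATP4B-DTR (95% interval 0.08 to 2.43, edgeR adjusted p = 0.121), 0.45 ± 0.51 in GIF-DTR (-0.69 to 1.60, adjusted p = 0.601) and 1.03 ± 0.52 in GIF/ATP4B-DTR (-0.13 to 2.20, adjusted p = 0.154). In ATP4B-DTR it was called by DESeq2 (1.23, adjusted p = 0.0246) and by edgeR without ATP4B-DTR 2 (1.61, adjusted p = 0.0317), and over 21 alternatives its adjusted p ranged from 0.0246 to 0.413.

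Of 29 listed genes of dense-core granules and secretion, 28 were tested, with 2 higher and 3 lower in ATP4B-DTR, 0 higher and 3 lower in GIF-DTR, and 2 higher and 4 lower in GIF/ATP4B-DTR. These are 5, 3 and 6 calls, where 21.6%, 16.8% and 33.6% of all tested genes were called, and nothing is read from the counts. Their median log2 change was -0.02, -0.16 and -0.26, beside -0.01, -0.01 and -0.04 over all genes. The other gene called higher, Vgf, which encodes a granin-like peptide precursor and was named after its values were seen, was at 0.494 and 0.998 CPM in the controls, 2.98 to 10.6 in ATP4B-DTR and 5.45 to 15.3 in GIF/ATP4B-DTR (log2 change 3.16 ± 0.76 and 3.69 ± 0.77, edgeR adjusted p = 0.0147 and 0.00439). Pam, the enzyme that amidates peptide hormones, and Syt7, a calcium sensor of exocytosis, fell in all 3 lines. Syt7 was at 71.3 and 84.6 CPM in the controls, 14.5 to 33.7 in ATP4B-DTR, 20.6 to 23.9 in GIF-DTR and 13.3 to 15.5 in GIF/ATP4B-DTR. Syp, the vesicle protein synaptophysin, fell in ATP4B-DTR (-1.43 ± 0.27, edgeR adjusted p = 0.00396) and GIF/ATP4B-DTR (-1.51 ± 0.27, adjusted p = 0.00147). Scg2, a further granin named after its values were seen, fell in GIF-DTR (-1.31 ± 0.40, adjusted p = 0.0431) and GIF/ATP4B-DTR (-1.19 ± 0.39, adjusted p = 0.0374), so granins were called in both directions. Enteric neurons also use these genes. Of 14 tested neuron and glia markers edgeR called 0 in any line, and 1, 0 and 2 had an unadjusted p under 0.05, yet 13 of the 14 had a negative log2 change in each line, with medians of -0.77, -0.49 and -1.17. The summed level of the 15 listed was 36.3 and 72.5 CPM in the controls, 14.9 to 43.5 in ATP4B-DTR, 17.2 to 61.2 in GIF-DTR and 20.3 to 44.6 in GIF/ATP4B-DTR, and the markers Elavl3 and Elavl4 were at 0.224 to 0.998 and 0.282 to 1.89 CPM. The part of neurons in these results was not tested.

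Hdc, the enzyme that makes histamine (chromosome 2, 126593667 to 126619299, minus strand), was at 10.6 and 19.9 CPM in the controls, 51.2, 25.5 and 60.3 in ATP4B-DTR 1 to 3, 8.18, 22.1 and 39.8 in GIF-DTR 1 to 3, and 29.5, 19.9 and 20.7 in GIF/ATP4B-DTR 1 to 3. All ATP4B-DTR samples lay above both controls, and the other lines overlapped them. The log2 change in ATP4B-DTR was 1.59 ± 0.63 (95% interval 0.15 to 3.02), with an unadjusted p of 0.0336 and an edgeR adjusted p of 0.109 that missed the threshold, and without GIF-DTR 1 the same 1.59 had an adjusted p of 0.0341. Over 21 alternatives its adjusted p ranged from 0.0341 to 0.339. In GIF-DTR and the combined line it was 0.62 ± 0.61 (-0.77 to 2.01 in each; edgeR adjusted p = 0.543 and 0.461).

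Slc18a2, an amine transporter of ECL cells among others (chromosome 19, 59260896 to 59296012, plus strand), was at 17.2 and 28.1 CPM in the controls, 25.7, 14.7 and 21.8 in ATP4B-DTR 1 to 3, 8.52, 17.3 and 21.7 in GIF-DTR 1 to 3, and 19.1, 16.7 and 14.0 in GIF/ATP4B-DTR 1 to 3. It thus did not run above the controls where Hdc did. The log2 change was -0.12 (95% interval -0.93 to 0.68), -0.51 (-1.32 to 0.29) and -0.45 (-1.25 to 0.35), with edgeR adjusted p values of 0.836, 0.377 and 0.363.

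Of 12 listed genes of histamine and ECL cells 7 were tested, and the 2 genes called, each lower, encode receptors. Hrh2, the histamine receptor of parietal cells, fell in all 3 lines, from 64.9 and 51.0 CPM in the controls to 12.8, 17.4 and 19.97 in ATP4B-DTR, 28.9 to 30.7 in GIF-DTR and 6.17 to 13.7 in GIF/ATP4B-DTR (log2 change -1.79 ± 0.28, -0.97 ± 0.27 and -2.46 ± 0.28; edgeR adjusted p = 0.00175, 0.0352 and 0.000164). Adcyap1r1, the receptor for the peptide PACAP, was at 46.4 and 41.5 CPM in the controls and fell in ATP4B-DTR (2.81 to 6.98 CPM; -3.28 ± 0.81, adjusted p = 0.0219) and GIF/ATP4B-DTR (1.45 to 3.56 CPM; -4.23 ± 0.85, adjusted p = 0.00534). Cckbr, the gastrin receptor gene, was at 3.44 to 3.95 CPM in the controls and 2.98 to 9.69 in the lines and was not called in any line.

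Ddc removes the carboxyl group in the last step of serotonin and dopamine synthesis, and also acts in epithelial cells outside the endocrine lineage. Ddc (chromosome 11, 11814101 to 11898144, minus strand) was at 4.40 and 5.93 CPM in the controls, 23.2, 20.7 and 20.8 in ATP4B-DTR 1 to 3, 8.99, 15.7 and 12.1 in GIF-DTR 1 to 3, and 44.7, 17.7 and 20.7 in GIF/ATP4B-DTR 1 to 3. All 9 samples of the lines lay above both controls. Ddc rose 4.18-fold in ATP4B-DTR (95% interval 2.27 to 7.69; log2 change 2.06 ± 0.40, edgeR adjusted p = 0.00539) and 5.37-fold in GIF/ATP4B-DTR (2.90 to 9.96; 2.43 ± 0.40, adjusted p = 0.0013). In GIF-DTR its log2 change of 1.25 ± 0.39 (95% interval 0.39 to 2.11) had an edgeR adjusted p of 0.0501, just short of the threshold, and it was called there without GIF-DTR 1 (1.43, adjusted p = 0.0436), without GIF/ATP4B-DTR 1 (1.25, 0.00724) or without GIF/ATP4B-DTR 2 (1.25, 0.0322). Over 21 alternatives its adjusted p ranged from 0.00724 to 0.235. The Ddc estimates were fractional in 7 samples, as when reads are divided between genes, so its level is less certain than those of the other members, which were whole in every sample.

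Tph1 carries out the rate-limiting step of serotonin synthesis outside the nervous system. Tph1 (chromosome 7, 46644641 to 46672537, minus strand) was at 5.75 and 5.04 CPM in the controls, 2.98, 1.76 and 0.787 in ATP4B-DTR 1 to 3, 0.852, 0.590 and 0.476 in GIF-DTR 1 to 3, and 2.18, 1.62 and 0.713 in GIF/ATP4B-DTR 1 to 3, from 12 to 128 counts. Every sample of the lines lay below both controls. Tph1 was 8.42-fold lower in GIF-DTR (log2 change -3.08 ± 0.59, 95% interval -4.36 to -1.79, edgeR adjusted p = 0.00667) and 3.59-fold lower in GIF/ATP4B-DTR (-1.84 ± 0.56, -3.07 to -0.62, adjusted p = 0.0251). In ATP4B-DTR the log2 change was -1.55 ± 0.56 (-2.77 to -0.33), and its edgeR adjusted p of 0.0681 missed the threshold; it was called there by DESeq2 (-1.57, adjusted p = 0.0324) and by edgeR without ATP4B-DTR 1 (-2.10, adjusted p = 0.0416), while over 21 alternatives its adjusted p ranged from 0.0324 to 0.441. In a fit that also held the log2 level of the Y-linked genes, the ATP4B-DTR value was -0.85 (edgeR adjusted p = 0.441) and the GIF-DTR value -1.73 (0.282). Within the other groups the Y-linked level hardly varied. That fit thus rests mostly on ATP4B-DTR 1 against ATP4B-DTR 2 and 3 (log2 level 7.52 against 2.565 and 1.901). It cannot separate genotype from Y-linked expression. The call in GIF/ATP4B-DTR was lost without control 1 (-1.74, adjusted p = 0.0818), control 2 (-1.94, 0.0713), GIF/ATP4B-DTR 2 (-1.90, 0.0577) or GIF/ATP4B-DTR 3 (-1.50, 0.0764).

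Mouse mast cells also express Tph1. Of 18 listed mast cell and basophil genes 13 were tested, of which 3, 6 and 4 fell in ATP4B-DTR, GIF-DTR and the combined line, with 0 higher, where 9.39%, 6.82% and 15.4% of all tested genes were called lower. Their median log2 change was -0.45, -1.72 and -1.01, beside -0.01, -0.01 and -0.04 over all genes. In ATP4B-DTR 4 of the 13 had a positive log2 change, named after their values were seen: Mcpt2 (0.21), Mcpt4 (0.53), Mcpt8 (2.60) and Hpgds (0.74), with edgeR adjusted p values of 0.859, 0.713, 0.111 and 0.197. Of the genes the rule names, Kit and Ms4a2, a subunit of the IgE receptor, fell in each line, Ms4a2 from 3.55 and 5.04 CPM in the controls to 1.37 to 1.49, 0.747 to 1.61 and 0.855 to 1.29 (log2 change -1.56 ± 0.41, -1.72 ± 0.41 and -1.91 ± 0.41; edgeR adjusted p = 0.0202, 0.0178 and 0.00472). Cpa3, a carboxypeptidase of mast cell granules, and the tryptase gene Tpsb2 fell in GIF-DTR (-2.15 ± 0.61 and -2.45 ± 0.63, adjusted p = 0.0384 and 0.0285) and were not called in the other lines. Tpsb2 was at 22.8 and 20.7 CPM in the controls, 4.02 to 12.1 in ATP4B-DTR, 1.30 to 7.76 in GIF-DTR and 6.70 to 10.1 in GIF/ATP4B-DTR. The summed level of the list was 224.5 and 261.5 CPM in the controls, 43.2 to 224 in ATP4B-DTR, 43.3 to 99.3 in GIF-DTR and 69.9 to 150.1 in GIF/ATP4B-DTR. Its defining genes were present in all samples, Cpa3 at 1.81 to 18.6 CPM, Mcpt1 at 3.27 to 83.7 and Mcpt2 at 7.36 to 68.1, and Kit, which other cells also express, made up 82.1 and 89.2 CPM of the controls' sum. In ATP4B-DTR 1 to 3, where Hdc lay above both controls, the sum was 224, 168 and 43.2 CPM. The part of mast cells in the Tph1, Hdc and Slc18a2 values was not tested. Basophils and neutrophils can also express Hdc: of 10 listed neutrophil genes 3 were tested, edgeR called 0 of them in any line, 0 had an unadjusted p under 0.05, and S100a8, S100a9 and Ly6g were at 0 to 0.333, 0 to 0.554 and 0 to 0.0427 CPM.

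**Figure D3:**
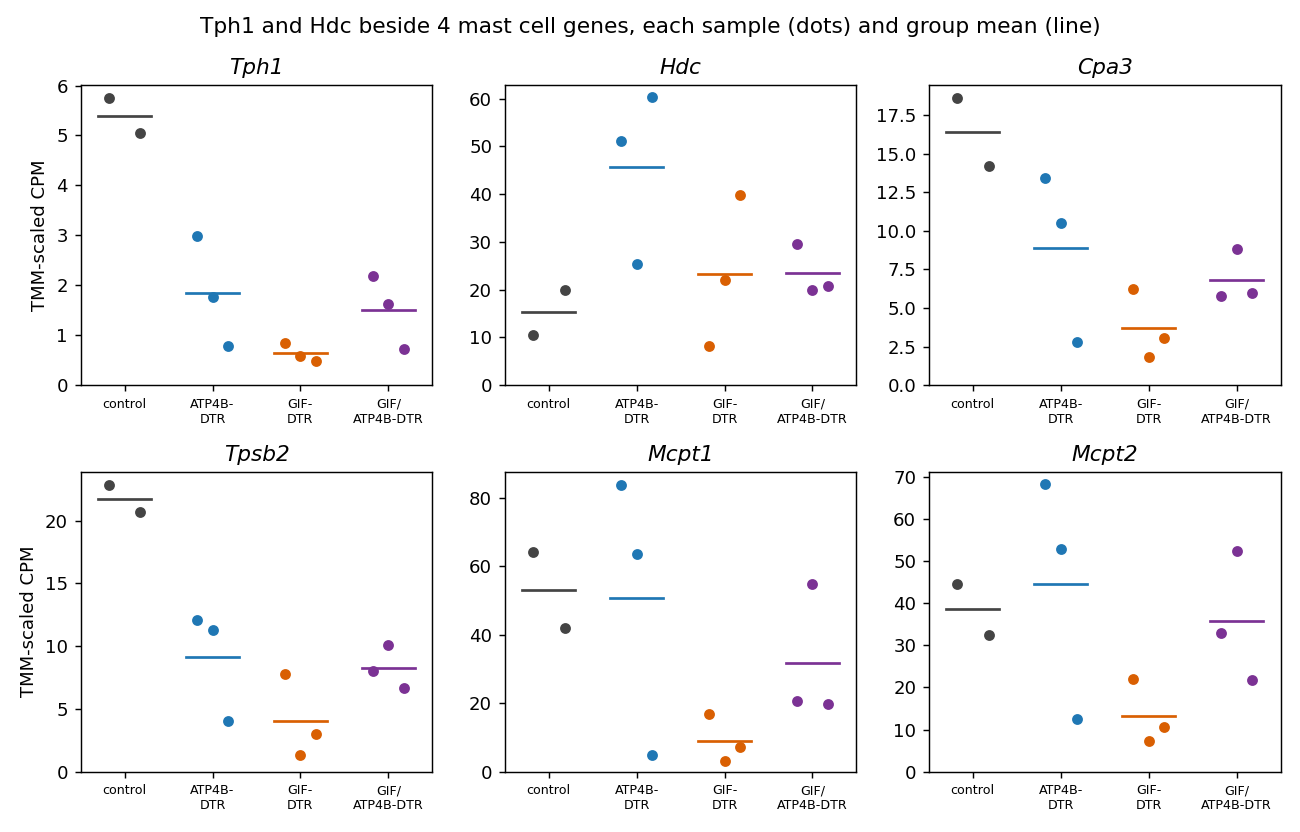
TMM-scaled CPM (y axis, linear from 0, a scale of its own in each panel) of Tph1, of Hdc and of the mast cell genes Cpa3, Tpsb2, Mcpt1 and Mcpt2, with dots for samples and lines for group means. Tph1, Cpa3 and Tpsb2 lie below both controls in all 9 samples of the lines, while Mcpt1 lies above both controls in ATP4B-DTR 1 and Mcpt2 in ATP4B-DTR 1 and 2 and GIF/ATP4B-DTR 2.

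Serotonin is made in the gut epithelium by enterochromaffin cells. The serotonin transporter gene Slc6a4 was at 0.118 to 0.427 CPM, Slc18a1, the vesicular monoamine transporter 1 gene, at 0.351 to 1.06, and the transcription factor genes Fev at 0.0397 to 0.385 and Lmx1a at 0 to 0.236. Tac1, which encodes the substance P precursor, was at 0.556 to 3.77 CPM. Of 14 listed serotonin genes 11 were tested, and apart from Tph1 and Ddc the called gene was Gch1, which makes the cofactor of tryptophan hydroxylase. Gch1 rose in GIF/ATP4B-DTR, where it was at 58.6 to 65.9 CPM against 43.7 and 24.6 in the controls (log2 change 0.84 ± 0.28, edgeR adjusted p = 0.0376).

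Neurod1, which drives late endocrine differentiation (chromosome 2, 79452521 to 79456751, minus strand), was close to the floor, with 3 to 13 counts per sample. It was at 0.269 and 0.333 CPM in the controls, 0.559, 0.439 and 0.248 in ATP4B-DTR 1 to 3, 0.189, 0.511 and 0.119 in GIF-DTR 1 to 3, and 0.484, 0.385 and 0.356 in GIF/ATP4B-DTR 1 to 3. The log2 changes of 0.46 (95% interval -1.14 to 2.05), -0.12 (-1.74 to 1.49) and 0.44 (-1.15 to 2.02) had edgeR adjusted p values of 0.687, 0.935 and 0.664. Changes in either direction within those intervals remain possible. The gene Cerkl overlaps Neurod1 on the same strand and held 3 to 25 counts, and the Neurod1 values were whole in every sample.

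Of 24 listed endocrine transcription factors 18 were tested, and 1, 0 and 2 of them were lower and 1, 1 and 2 higher in ATP4B-DTR, GIF-DTR and the combined line, where 21.6%, 16.8% and 33.6% of all tested genes were called either way. Isl1, a factor of endocrine cells and of other lineages, rose in all 3 lines. Isl1 was at 6.38 and 13.2 CPM in the controls, 29.7, 22.7 and 27.7 in ATP4B-DTR 1 to 3, 19.2, 27.1 and 39.8 in GIF-DTR 1 to 3, and 39.3, 26.8 and 15.5 in GIF/ATP4B-DTR 1 to 3. All samples of the lines lay above both controls (log2 change 1.45 ± 0.45, 1.56 ± 0.45 and 1.48 ± 0.45; edgeR adjusted p = 0.044, 0.0418 and 0.0289). Runx1t1 fell in ATP4B-DTR (-1.34 ± 0.33, adjusted p = 0.0142) and GIF/ATP4B-DTR (-1.83 ± 0.33, adjusted p = 0.00168). In GIF/ATP4B-DTR Etv1 fell (-1.71 ± 0.54, edgeR adjusted p = 0.0312) and Egr4, listed at 0 in both controls and at 0.0403, 0.599 and 1.39 CPM in that line, was called higher (adjusted p = 0.0218). Neurog3, the factor that commits cells to the endocrine lineage, did not pass the filter on low counts and was not tested. Its rounded counts were 0 in both controls, 3, 4 and 19 in ATP4B-DTR 1 to 3, 1, 4 and 1 in GIF-DTR 1 to 3, and 9, 3 and 4 in GIF/ATP4B-DTR 1 to 3, mostly close to or under the floor of 3 counts.

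Gastrin is made by G cells of the antrum and duodenum, and its transcript is used here as a check for tissue from there. The source of the transcripts in this paragraph was not tested. Gast (chromosome 11, 100334407 to 100336996, plus strand) held 1 and 0 counts in the controls, 0, 0 and 42 in ATP4B-DTR 1 to 3, 41, 28 and 0 in GIF-DTR 1 to 3, and 1, 0 and 1 in GIF/ATP4B-DTR 1 to 3. The 3 samples above the floor, ATP4B-DTR 3 and GIF-DTR 1 and 2, were at 1.74, 1.94 and 1.10 CPM. No line was called (edgeR adjusted p = 0.275, 0.211 and 0.989). Nkx6-3 and Pdx1, from the list of antrum and duodenum, were high in the same samples and also in GIF/ATP4B-DTR 1. Nkx6-3, an antral transcription factor, was at 14.0, 3.50 and 9.72 CPM in the 3 samples, at 6.21 in GIF/ATP4B-DTR 1 and at 0 to 0.404 in the other 7 samples. Pdx1, a factor of antrum, duodenum and pancreas, was at 7.08, 3.41 and 8.10 CPM in the 3 samples and at 7.18 in GIF/ATP4B-DTR 1, against 0.314 and 0.0554 in the controls and 0.922 to 2.99 in the rest. Pyy, the gene of the gut hormone peptide YY, named after its values were seen, was at 0.746, 1.42 and 0.590 CPM in these samples and at 0 to 0.385 in the others.

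Of 12 listed genes of antrum and duodenum 8 were tested, with 0, 2 (Pdx1 and Fabp2) and 2 (likewise) called higher in ATP4B-DTR, GIF-DTR and the combined line and 0 lower by edgeR, and 3, 2 and 4 had an unadjusted p under 0.05. The summed level of that list was 90.4 and 51.1 CPM in the controls and 113, 123 and 145 in ATP4B-DTR 1 to 3. It was 101, 167 and 87.6 in GIF-DTR 1 to 3, and 189.7, 118 and 139.9 in GIF/ATP4B-DTR 1 to 3. Across the lines the sum thus did not follow the gastrin counts. The intestinal factor genes Cdx1 and Cdx2 were at 0 in most samples and at most 0.0807 and 0.207 CPM. Without the 3 samples with gastrin counts, a choice made after seeing the data, Chgb and Ddc stayed called in ATP4B-DTR and Chgb, Ddc and Tph1 in GIF/ATP4B-DTR. Tph1 in GIF-DTR, then a single sample assumed to vary like the other groups, was at -3.51. This choice left out no GIF/ATP4B-DTR sample and kept GIF/ATP4B-DTR 1, where Nkx6-3 and Pdx1 were high. The calls in that line therefore say nothing on the part of antral tissue. The part of antral tissue in the other members' values was not tested. Of 17 listed genes of other gut peptides 9 were tested, edgeR called 0 in any line, and 1, 0 and 1 had an unadjusted p under 0.05. The islet genes Ins1 and Ins2 were listed at 0 in all 11 samples, and the acinar gene Cela2a was at 4.57 CPM in ATP4B-DTR 2 against 0.0428 to 0.887 in the others. Of 14 listed acinar genes 9 were tested. Cela1 was called higher in ATP4B-DTR, with 0 lower there. Try4 and Clps were called lower in GIF-DTR, and Try4, Cel and Clps in GIF/ATP4B-DTR, with 0 higher in these lines.

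**Figure D4:**
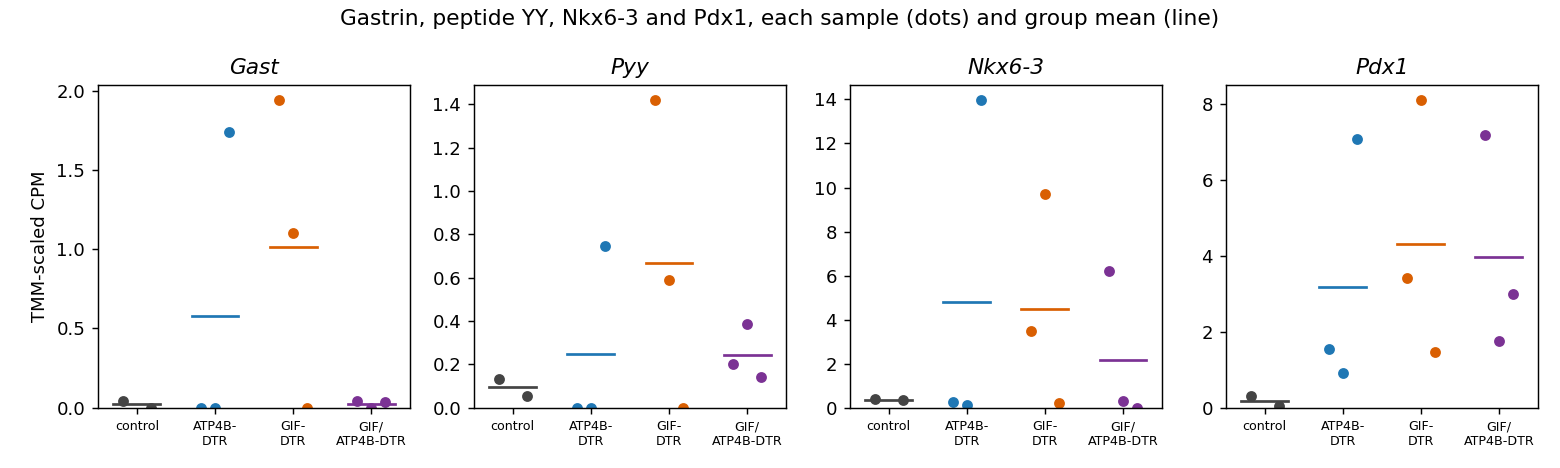
TMM-scaled CPM (y axis, linear from 0, a scale of its own in each panel) of gastrin, peptide YY, Nkx6-3 and Pdx1, with dots for samples and lines for group means. Gast is above the floor in ATP4B-DTR 3 and GIF-DTR 1 and 2, and Nkx6-3 and Pdx1 are high in these samples and in GIF/ATP4B-DTR 1.

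Ratios of 2 genes within a sample do not depend on how libraries are scaled, and were computed for 10 pairs of genes chosen after the values were seen. Chgb per Ghrl was 0.0284 and 0.0329 in the controls, 0.235 to 0.378 in ATP4B-DTR, 0.0483 to 0.197 in GIF-DTR and 0.179 to 0.189 in GIF/ATP4B-DTR. The 2 controls, which differed about as much in Chgb as in Ghrl, were close in this ratio, and all 9 samples of the lines were above them. Chga per Ghrl was 0.398 and 0.503 in the controls, 1.02 to 1.61 in ATP4B-DTR, 0.535 to 1.09 in GIF-DTR and 0.873 to 1.09 in GIF/ATP4B-DTR. Sst per Ghrl was 0.294 and 0.373 in the controls and 0.403 to 0.593 in the lines. Hdc per Slc18a2 was 0.612 and 0.709 in the controls, 1.73 to 2.76 in ATP4B-DTR, 0.961 to 1.84 in GIF-DTR and 1.19 to 1.55 in GIF/ATP4B-DTR. In these 4 ratios, shown out of the 10, no line overlapped the controls, while GIF-DTR overlapped them in 3 others: Hdc per Ghrl (0.0222 to 0.108 against 0.0315 and 0.0322), Pcsk1 per Pcsk2 (1.02 to 2.24 against 1.06 and 1.11) and Sst per Chga (0.388 to 1.11 against 0.738 and 0.743). For each ratio an exact two-sided permutation test of 2 against 3 samples cannot go below p = 0.2, so none of them can pass a threshold of 0.05.

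**Figure D5:**
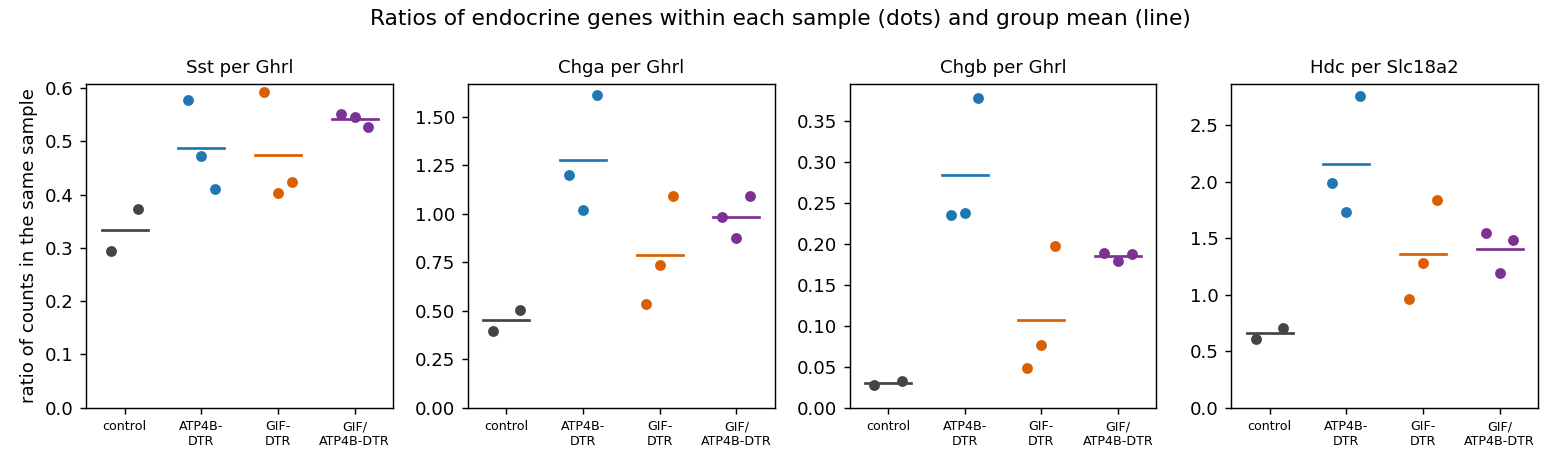
Ratio of counts of 2 endocrine genes within each sample (y axis, linear from 0, a scale of its own in each panel), with dots for samples and lines for group means. In all 4 panels the 9 samples of the lines lie above both controls, and in 3 of them the ATP4B-DTR mean is the highest.

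The genes whose levels ran most like a member over the 11 samples were ranked by Pearson's r of log2(CPM + 1) among 10041 named genes with a mean of at least 5 CPM, as a description with no test, since the points share their 4 groups. For Ghrl the nearest 5 were Resp18 (r = 0.851, Spearman's rho = 0.873), a granule protein, Sst (0.842, 0.891), Grk3 (0.833, 0.527), Vtn (0.826, 0.764) and Ceacam10 (0.819, 0.873). For Chga they were Ktn1 (0.921, 0.955), Scg5 (0.917, 0.973), Chgb (0.914, 0.955), the prohormone convertase Pcsk1 (0.909, 0.945) and Gc (0.908, 0.936). For Hdc they were Pappa2 (0.933, 0.882), Pcsk1 (0.92, 0.873), Sntb1 (0.909, 0.809), Gc (0.88, 0.818) and Agt (0.879, 0.791). For Sst they were Cnn2 (0.888, 0.855), Sh3bp4 (0.876, 0.773), Dhrs7 (0.869, 0.882), March9 (0.845, 0.8) and Ghrl (0.842, 0.891).

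Between the lines, 0 of the 10 genes were called by edgeR in any comparison. In GIF-DTR against ATP4B-DTR 0.49% of all tested genes were called (0.403% higher, 0.0873% lower), and 3 members had an unadjusted p under 0.05, where 9.81% of tested genes had, each lower in GIF-DTR on average: Chgb (log2 difference -1.47 ± 0.55, adjusted p = 0.418, and -0.48 with 0.979 without the 3 samples with gastrin counts), Tph1 (-1.52 ± 0.54, adjusted p = 0.345) and Ddc (-0.81 ± 0.32, adjusted p = 0.425). In GIF/ATP4B-DTR against ATP4B-DTR 0% of tested genes were called by edgeR, although 1554 genes, or 10.4%, had an unadjusted p under 0.05 and DESeq2 called 266, with 0 members among the calls of either tool and 0 members at an unadjusted p under 0.05 in edgeR. The 95% intervals of that difference were -1.65 to 0.82 for Chgb, -0.34 to 1.07 for Ddc and -1.42 to 0.84 for Tph1. In GIF/ATP4B-DTR against GIF-DTR, where 2.53% of tested genes were called (0.336% higher, 2.19% lower), Ddc was higher in GIF/ATP4B-DTR in every sample (log2 difference 1.17 ± 0.33, 95% interval 0.46 to 1.89), with an edgeR adjusted p of 0.0989 and a DESeq2 adjusted p of 0.00871, and an edgeR adjusted p of 0.79 (1.01) in a fit that also held the level of the Y-linked genes, the highest of 21 alternatives. Genotype and Y-linked expression cannot be told apart here. Tph1 in that comparison differed by 1.23 ± 0.54 (edgeR adjusted p = 0.259), and these 2 of the 9 members without Gast had an unadjusted p under 0.05, where 18% of tested genes had. The samples of these lines did not overlap for Sst, Chgb and Ddc, 3 of 9 members, where 26.4% of tested genes did not.

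The interaction of the genotypes compares the step between ATP4B-DTR and the combined line with the step between control and GIF-DTR. By edgeR 0.651% of tested genes (0.128% higher, 0.524% lower) and 0 of the 10 members were called, and 1 of the 9 without Gast had an unadjusted p under 0.05, where 15.6% of tested genes had. That was Tph1, at 2.79 ± 0.78 on the log2 scale (95% interval 1.08 to 4.49), with an unadjusted p of 0.00403, an edgeR adjusted p of 0.121 and a DESeq2 adjusted p of 0.0179. In a fit that also held the level of the Y-linked genes the value was 0.63 (edgeR adjusted p = 0.923), and over 20 alternatives the adjusted p ranged from 0.0179 to 0.923. The fit with the Y-linked level has the limit given for Tph1 above. Thus the GIF-DTR and GIF/ATP4B-DTR levels of Tph1, 0.639 ± 0.192 and 1.51 ± 0.740 CPM (SD, n = 3 each), lie beside 1.84 ± 1.10 in ATP4B-DTR (n = 3) and 5.40 ± 0.497 in the controls (n = 2).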

How the data were processed

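RNA from mouse gastric corpus mucosa was made into stranded TruSeq mRNA libraries, per the labels' protocols. The authors deposited 1 table of expected counts (estimated counts per gene, 30.7% of nonzero entries fractional), and the genome build is mm10, per the submitters' processing notes. The aligner, quantifier, annotation and strand setting are not given in the sources used here. The number of sample columns left unused was 0. Samples were grouped by genotype label, and only the control titles carry replicate numbers.

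The tests had been designed for whole-number counts, so the expected counts were rounded. Genes were kept by filterByExpr (14889 of 34866), scaled by TMM and fitted over all 11 samples with edgeR 4.0.16 in R 4.3.3 (robust quasi-likelihood, 1 coefficient per group), which shares the spread between the 2 controls and the lines (common BCV, the coefficient of variation between samples, 26.6%). Benjamini-Hochberg adjustment ran over the tested genes of each comparison. DESeq2 1.42.0, other scalings, filters, covariates and leaving out each sample were alternatives. Standard errors are the log2 change divided by the square root of F, and intervals are 95%. Totals of 20.7 to 27.9 M set a floor of 3 counts, which covers counting error only, since reads copied by PCR do not count separate molecules. Symbols matched 34582 identifiers, and coordinates and exon lengths came from GENCODE M21.

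Besides the 10 members, genes were named by rule: from each list at most 4 genes called in a line against control, by mean CPM, the 3 defining genes of other cell types (1 of them is not reported here), the targeted genes, and the 5 genes most like Ghrl, Sst, Hdc and Chga. Genes outside it are marked as named after their values were seen; Mboat4, Ghsr, Cckbr, Elavl4, Slc6a4, Slc18a1, Fev, Lmx1a, Tac1, Neurog3, Cdx1, Cdx2 and Cela2a are list members given for their role. The members and lists were chosen with earlier results of these data known.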

Additional observations from a re-analysis of the deposited data

How the results depend on the processing

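In ATP4B-DTR against control the 2 calls became 4 in DESeq2 (Chga, Chgb, Tph1 and Ddc) and ranged from 1 to 3 when 1 sample at a time was left out, with Ddc alone called without either control. In GIF-DTR the 1 call became 2 (Tph1 and Ddc) with DESeq2 size factors, with library totals, with TMM without the 50 most abundant genes, in DESeq2, with at least 10 counts in every sample, without robust moderation and with only the groups compared, and 1 to 2 when 1 sample was left out. It became 0 with the Y-linked index as covariate and 0 without the 3 samples with gastrin counts, an alternative added after seeing the data. In GIF/ATP4B-DTR the 3 calls ranged from 1 to 3, with Ddc alone called without control 1. DESeq2 called 1 gene in GIF/ATP4B-DTR against GIF-DTR (Ddc, 1.18) and 1 in the interaction (Tph1, 2.81), and leaving out 1 sample gave 0 between the lines. Without a filter on low counts Chgb in GIF/ATP4B-DTR had an edgeR adjusted p of 0.0557 at 2.50. The calls of Ddc in ATP4B-DTR and GIF/ATP4B-DTR held in each of 21 alternatives (log2 change 1.86 to 2.37 and 1.90 to 2.74).

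Over all genes, the calls numbered 2500 in GIF-DTR (502 with the Y-linked covariate, 4163 with library totals) and 3211 in ATP4B-DTR (2021 with that covariate). Fits with this covariate rest mostly on the split within ATP4B-DTR and cannot separate genotype from Y-linked expression. Without the gastrin samples GIF-DTR had 595. Leaving out 1 sample at a time gave 1315 to 3329 in ATP4B-DTR, 871 to 2629 in GIF-DTR, 2874 to 5042 beside 5005 in GIF/ATP4B-DTR, 17 to 140 beside 73 in GIF-DTR against ATP4B-DTR, 160 to 393 beside 376 in GIF/ATP4B-DTR against GIF-DTR and 0 to 277 beside 97 in the interaction. DESeq2 against edgeR gave 360 against 73 in GIF-DTR against ATP4B-DTR, 266 against 0 in GIF/ATP4B-DTR against ATP4B-DTR, 934 against 376 in GIF/ATP4B-DTR against GIF-DTR, and 671 against 97 in the interaction. The Y-linked covariate gave 21, 16 and 5 in the first, the third and the last of these. Over 20 alternatives the calls in the interaction ranged from 0 to 1003.

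Signs turned in values that were not called. Library totals, which moved the median of all genes by 0.31, 0.36 and 0.32 in the 3 lines against control, gave Ghrl 0.089, 0.040 and 0.25 in these lines, Slc18a2 0.19 in ATP4B-DTR and Neurod1 0.23 in GIF-DTR. The Y-linked covariate gave Ghrl 0.26 and Slc18a2 0.061 in ATP4B-DTR, Ghrl 0.60 and Neurod1 0.66 in GIF-DTR, and Tph1 -0.22 in GIF/ATP4B-DTR against GIF-DTR. Without the gastrin samples Sst was -0.11 in GIF-DTR. Leaving out 1 sample at a time, the values against control ranged for Ghrl from -0.69 to 0.28, -0.67 to 0.20 and -0.42 to 0.46 in the 3 lines, for Sst from -0.36 to 1.07 in ATP4B-DTR and -0.34 to 0.88 in GIF-DTR, for Slc18a2 from -0.43 to 0.26 in ATP4B-DTR, and in GIF-DTR from -0.012 to 1.15 for Hdc, -0.030 to 1.19 for Chga and -0.95 to 0.23 for Neurod1. In GIF/ATP4B-DTR against ATP4B-DTR, Tph1 ranged from -0.66 to 0.23 and Ddc from -0.17 to 0.60. The cause was not tested. Of 625 values of Gast, and of other members between lines, that are not given singly (a restriction made after the values were seen), 61 changed sign and 0 of these were called by edgeR or the alternative. No paired analysis was possible because only the control titles carry replicate numbers. With 2 controls, 12 to 128 counts limit Tph1 and 3 to 13 limit Neurod1.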
